A study of Mus musculus with 8 samples.

Results

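Transcripts of 10 genes that mark pericytes and vascular smooth muscle cells were followed in macrophages sorted from mouse epididymal white adipose tissue (eWAT). The genes were taken by symbol: Rgs5, Cspg4, Notch3, Kcnj8 and Abcc9, which are most often used for pericytes, and Acta2, Tagln, Mylk, Des and Cnn1, which belong to the contractile apparatus and cytoskeleton of smooth muscle. All 10 were among the 17740 genes listed for mice on a high-fat diet (HFD), and 9 were among the 16436 genes listed for mice on a normal diet (ND), where Cnn1 was not analysed here.

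Pericytes and smooth muscle cells are together called mural cells. Pericytes sit on capillaries within the basement membrane that they share with endothelial cells, to which they are recruited by PDGF-B acting on PDGFRB, and Notch3 receives signals from ligands on the neighbouring endothelium. Smooth muscle cells encircle larger vessels and contract when myosin light chain kinase phosphorylates myosin, and their contractile genes are driven by serum response factor (SRF) with its partner myocardin. Adipose tissue is densely vascular, and neither cell type is a macrophage.

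Adhesion-related macrophages (ARMs) were released from the floating adipocyte layer of collagenase-digested eWAT, and stromal vascular fraction macrophages (SMs, labelled NARM) were taken from the pelleted fraction, both by flow cytometric sorting. All mice were wild-type males on a C57BL/6 background, macrophages were stained for CD45, CD11b and F4/80, and each of the 4 groups (HFD ARM, HFD SM, ND ARM and ND SM) had 2 libraries of bulk RNA-seq. The HFD groups had received the diet (60% fat) for 8 weeks from 6 weeks of age, and the ND groups chow. Each library pooled 6 mice on HFD or 10 mice on ND, so the replicate spread is that between pools and does not show single animals. Estimated counts summed to between 14508824 and 19040133 per library.

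The macrophage identity of the sorted cells was checked on 12 macrophage markers. Their summed level was between 22450 and 26300 CPM (normalized counts scaled to equal library totals) in every library. None of them was called by edgeR or DESeq2 in either diet, and 5 in HFD mice and 1 in ND mice had an unadjusted p under 0.05. Adgre1, which encodes F4/80, had a mean FPKM (a level scaled to gene length and library total) of 325 in HFD ARMs and 331 in HFD SMs. On the same scale per length, Rgs5 stood at 3.49% of Adgre1 for ARMs and 1.47% for SMs of HFD mice. In ND mice it stood at 1.11% and 0.539%. Rgs5 was thus low against Adgre1 in every group. The gap depended on the marker, as Fcgr1, another of the macrophage markers, was at 30.9 FPKM in HFD ARMs against 11.4 for Rgs5. In these bulk libraries fewer mural cells and less RNA per mural cell cannot be told apart, nor can either from a low level within macrophages.

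A pair of members with different results is shown first by the DNA before their transcription start, because Rgs5 rose in both diets and Acta2 was not called in either. Rgs5 lies on the plus strand (GENCODE gene at chr1:169655501-169695813, build GRCm38, the mm10 assembly named in the submitters' processing notes), and Acta2 on the minus strand (chr19:34241090-34255590). The sequences are from RefSeq, build GRCm38.p6, and 9 of the 10 members had one, all but Tagln. The 250 bases before the Rgs5 start (chr1:169655251-169655500) and a pair of 30-base stretches of Acta2, covering bases 94 to 65 and 44 to 15 before its RefSeq start (chr19:34255438-34255467 and chr19:34255388-34255417), read 5′ to 3′ on the gene's strand as follows, with matches to the CArG box, the SRF element, in capitals when 1 core base other than A or T is allowed.
Rgs5: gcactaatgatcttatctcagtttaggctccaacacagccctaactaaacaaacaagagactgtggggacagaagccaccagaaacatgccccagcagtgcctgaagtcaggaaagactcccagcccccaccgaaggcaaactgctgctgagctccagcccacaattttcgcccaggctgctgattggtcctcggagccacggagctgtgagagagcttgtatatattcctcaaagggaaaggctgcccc
Acta2 match 1: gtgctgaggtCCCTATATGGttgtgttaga
Acta2 match 2: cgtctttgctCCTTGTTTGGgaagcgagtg
Both Acta2 stretches lie within the GENCODE span of the gene, which begins before the RefSeq start. The strict CArG box was in 0 of the 9 upstream regions of 250 bases and in 1.47% of all 32851 such regions. With 1 other core base allowed it was in Acta2 alone among the members and in 8.59% of all regions. The core element TGGGAA of the Notch partner RBP-J, searched on both strands, was in the regions of Abcc9 and Acta2 and in 21.6% of all. The TEAD element CATTCC, likewise on both strands, was in Abcc9, Acta2 and Mylk and in 12.6% of all. These are letter matches within a window and say nothing of whether a factor bound there.

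The ARM and SM libraries of each diet were set against each other, to ask whether macrophages from the adipocyte layer carried more or less of the mural transcripts than those of the stromal vascular fraction. In HFD mice Rgs5, Notch3, Abcc9 and Mylk were higher in ARMs, by 1.54-fold to 2.77-fold, and in ND mice Rgs5 and Des were higher, by 2.08-fold and 2.60-fold. No member was called lower in ARMs in either diet. Acta2 and Tagln, both classical smooth muscle transcripts, were not called in either diet, and their ARM and SM libraries overlapped. Calls required more than a 1.5-fold change together with an adjusted p below 0.05, where p came from the quasi-likelihood test of edgeR and was adjusted by Benjamini-Hochberg over all genes tested.

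Of the 10 members, 9 passed the filter on low counts in HFD mice, and 4 of them were called higher, against 4.46% of all 13337 genes tested. In ND mice 8 of the 9 listed passed and 2 were called higher, against 3.55% of all 12441 genes. With the looser threshold that the study's methods give, a log2 fold change over 0.6 and an unadjusted p under 0.05, 7 members were higher in HFD mice, against 6.91% of all genes, and 5 in ND mice, against 6.38%. The log2 fold change was above 0 for 9 of 9 members tested in HFD mice and 8 of 8 in ND mice, with medians of 0.86 and 1.15, where the median over all genes was -0.0064 and -0.016. Both ARM libraries stood above both SM libraries for 7 members on HFD (30.0% of all genes did so) and for 6 members on ND (20.8% of all genes).

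**Figure D1:**
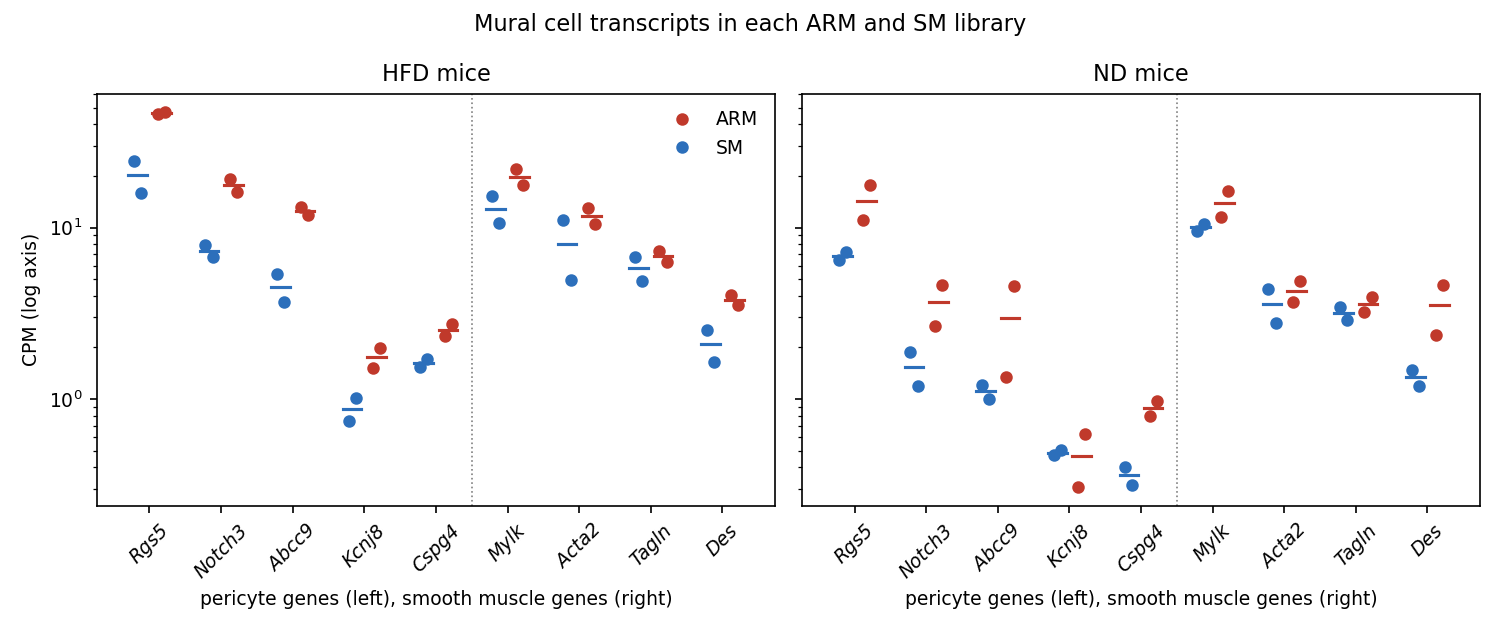
Normalized level (CPM, log axis) of 9 members in each library of HFD mice (left) and ND mice (right), with points for the 2 libraries of a group and a bar at their mean, ARMs in red and SMs in blue. Rgs5 was the most abundant member in HFD ARMs, at 45.7 and 47.1 CPM, and the ARM and SM points of Acta2 and Tagln overlapped in both diets.

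Rgs5 (Entrez 19737) encodes a regulator of G protein signaling that shortens the response to contractile agonists and is among the most widely used pericyte transcripts. In HFD mice it had 844 and 876 counts in the ARM libraries and 463 and 299 in the SM libraries. In ND mice it had 181 and 254 counts in ARMs and 96 and 115 in SMs. In both diets every ARM library was above every SM library. The log2 fold change was 1.20 (SE 0.147, adjusted p = 0.00076) in HFD mice and 1.06 (SE 0.211, adjusted p = 0.0076) in ND mice, and Rgs5 was the only member called in both. The HFD call of Rgs5 held with each library left out, with log2 fold changes between 0.92 and 1.55. It was lost without a filter on low counts (adjusted p = 0.0692), with limma on log2(FPKM + 0.1) (0.0626) and with limma on log2(FPKM + 1) without a filter (0.143). In ND mice the call was lost without ARM library 2 (0.69 on the log2 scale, adjusted p = 0.156) and in all 3 limma settings (adjusted p from 0.0776 to 0.345).

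Notch3 and Abcc9 moved much as Rgs5 did in HFD mice. Notch3 (Entrez 18131), the Notch receptor of mural cells, had 356 and 301 counts in HFD ARMs and 149 and 127 in HFD SMs, a log2 fold change of 1.27 (SE 0.131, adjusted p = 0.000275). Its ND counts were 44 and 67 in ARMs and 28 and 19 in SMs, a log2 fold change of 1.24 (SE 0.356, adjusted p = 0.0627), so the change in ND mice was of like size but did not pass the test. Abcc9 (Entrez 20928) encodes SUR2, the regulatory subunit of the ATP-sensitive potassium channel of vascular mural cells. It had 242 and 221 counts in HFD ARMs and 101 and 69 in HFD SMs, the largest log2 fold change of the members in HFD mice, 1.47 (SE 0.173, adjusted p = 0.000597). In ND mice Abcc9 had 22 and 66 counts in ARMs and 18 and 16 in SMs, so that ARM library 2 alone stood well above the SMs. The ND log2 fold change of Abcc9 was 1.39 (SE 0.487, adjusted p = 0.144), and it was 0.28 without ARM library 2 and 2.04 without ARM library 1.

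Kcnj8 (Entrez 16523) encodes Kir6.1, the pore subunit that assembles with SUR2, and lies next to Abcc9 on the same strand of chromosome 6, with 16247 bases between the genes. Kcnj8 had 28 and 37 counts in HFD ARMs and 14 and 19 in HFD SMs, with no overlap, and a log2 fold change of 0.99 (SE 0.343, adjusted p = 0.105). In ND mice it had 5 and 9 counts in ARMs and 7 and 8 in SMs and was not tested. The pore and the regulatory subunit thus had both ARM libraries above both SM libraries in HFD mice, and Kcnj8 did not pass the test at these counts. The related channel genes Kcnj11 and Abcc8, of pancreatic beta cells, had at most 2 counts in any library.

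Cspg4 (Entrez 121021) encodes the proteoglycan NG2, a surface antigen used to sort pericytes. It had 43 and 51 counts in HFD ARMs and 29 and 32 in HFD SMs, and 13 and 14 in ND ARMs and 6 and 5 in ND SMs. The ARM libraries were above the SM libraries in both diets. The log2 fold changes were 0.64 (SE 0.259, adjusted p = 0.164) and 1.28 (SE 0.539, adjusted p = 0.262), and neither passed the test.

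Among the smooth muscle genes, Mylk (Entrez 107589), which encodes myosin light chain kinase, had 404 and 332 counts in HFD ARMs and 288 and 199 in HFD SMs. Its log2 fold change was 0.62 (SE 0.159, adjusted p = 0.0361), just past the fold threshold. DESeq2 called it too (adjusted p = 0.0347). The call was lost in edgeR without a filter on low counts (adjusted p = 0.226) and in one fit of all 8 libraries (0.0728). Limma did not call it on log2(FPKM + 1) (adjusted p = 0.0914), on log2(FPKM + 0.1) (0.142) or on log2(FPKM + 1) without a filter (0.226). The HFD call of Mylk was lost without ARM library 1 (adjusted p = 0.319), ARM library 2 (0.129) or SM library 2 (0.0893). In ND mice Mylk had 189 and 237 counts in ARMs and 141 and 168 in SMs, a log2 fold change of 0.47 (SE 0.181, adjusted p = 0.198), which passed without ARM library 1, at 0.71 (adjusted p = 0.0361).

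Des (Entrez 13346) encodes desmin, the intermediate filament of muscle, which pericytes also carry. In ND mice it had 39 and 67 counts in ARMs and 22 and 19 in SMs, and it rose with a log2 fold change of 1.38 (SE 0.371, adjusted p = 0.0470). The ND call of Des held in edgeR with other scalings (adjusted p from 0.042 to 0.0466). It was absent with DESeq2 (adjusted p = 0.168) and with limma on log2(FPKM + 1) without a filter (0.412). That call was lost without ARM library 2 (0.83, adjusted p = 0.505), SM library 1 (1.53, adjusted p = 0.168) or SM library 2 (1.24, adjusted p = 0.222). In HFD mice Des had 75 and 66 counts in ARMs and 48 and 31 in SMs, a log2 fold change of 0.86 (SE 0.255, adjusted p = 0.0627), and passed without SM library 1, at 1.21 (adjusted p = 0.0166).

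Acta2 (Entrez 11475) encodes smooth muscle alpha-actin, the most used marker of smooth muscle cells and myofibroblasts. It had 240 and 195 counts in HFD ARMs and 210 and 93 in HFD SMs, so that SM library 1 lay between the ARM libraries. The log2 fold change was 0.55 (SE 0.276, adjusted p = 0.275), and it ran from 0.076 without SM library 2 to 1.25 without SM library 1, where Acta2 passed (adjusted p = 7.31e-05). In ND mice Acta2 had 60 and 70 counts in ARMs and 65 and 44 in SMs, a log2 fold change of 0.25 (SE 0.282, adjusted p = 0.777). The call of Acta2 in HFD mice thus turned on a single SM library.

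Tagln (Entrez 21345) encodes transgelin, an actin-binding protein that appears early in smooth muscle differentiation. Its counts were 134 and 118 in HFD ARMs against 128 and 92 in HFD SMs, and 53 and 57 in ND ARMs against 51 and 46 in ND SMs. The log2 fold changes were 0.22 (SE 0.185, adjusted p = 0.546) and 0.18 (SE 0.272, adjusted p = 0.840). Cnn1, encoding the smooth muscle calponin, had 0 and 1 counts in HFD ARMs and 0 and 1 in HFD SMs and was not tested. The defining marker of fully contractile smooth muscle, Myh11, singled out here after its values were seen, had 194 and 139 counts in HFD ARMs and 171 and 99 in HFD SMs, a log2 fold change of 0.33 (adjusted p = 0.473). In ND mice Myh11 had 76 and 92 counts in ARMs and 65 and 53 in SMs, where the ARM libraries were above the SM libraries. Its log2 fold change there was 0.51 (adjusted p = 0.369).

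**Figure D2:**
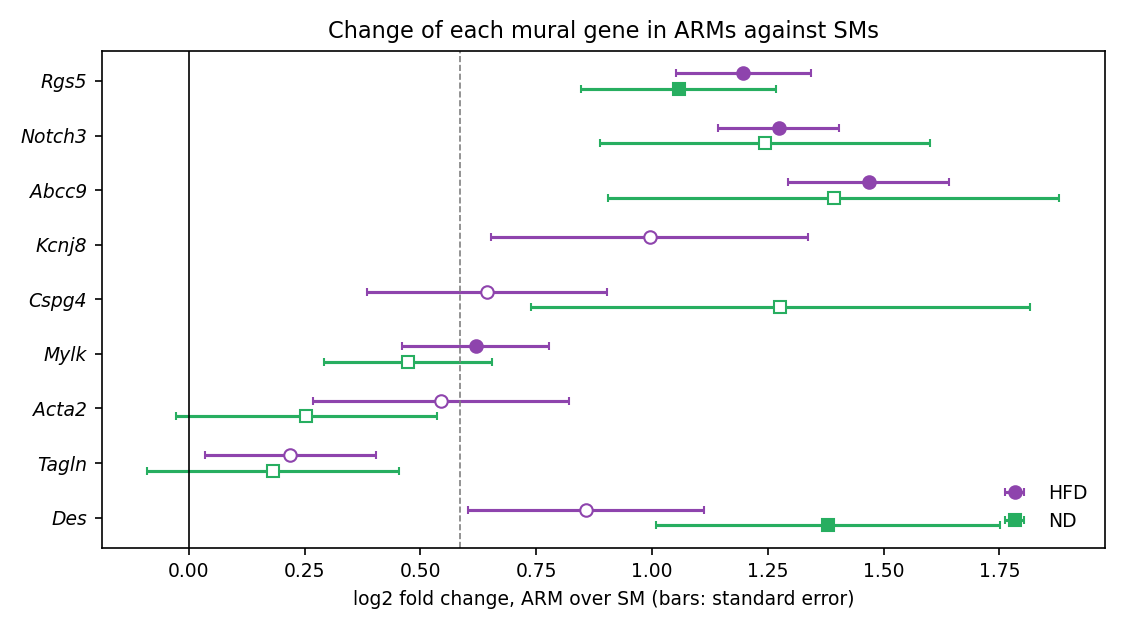
Log2 fold change of ARMs over SMs (bars, standard error) for the members tested in HFD mice (purple circles) and ND mice (green squares), with filled symbols for called genes and a dashed line at a 1.5-fold change. Rgs5 is filled in both diets, Notch3, Abcc9 and Mylk in HFD mice and Des in ND mice, and Kcnj8 was not tested in ND mice.

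Summed over the 5 pericyte genes, the level was 79.9 to 81.9 CPM in HFD ARMs and 29.1 to 40.1 CPM in HFD SMs, and 16.2 to 28.5 CPM in ND ARMs and 10.3 to 10.4 CPM in ND SMs. Summed over the smooth muscle genes it was 38.3 to 46.2 against 22.1 to 35.7 CPM in HFD mice, and 20.8 to 29.9 against 17.4 to 18.8 CPM in ND mice. The ARM sums were above the SM sums in both diets for both groups of genes. The pericyte sum was 2.34-fold higher in ARMs in HFD mice and 2.16-fold in ND mice, and the smooth muscle sum 1.46-fold and 1.40-fold. Rgs5 made up most of the pericyte sum, at a mean of 46.4 CPM in HFD ARMs and 20.2 CPM in HFD SMs. Mylk was the largest part of the smooth muscle sum, at 19.9 and 12.9 CPM. Single members of these groups changed less, as Cspg4 (1.56-fold) and Tagln (1.16-fold) did in HFD mice, or more, as Abcc9 did (2.77-fold).

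The spread between libraries was shared by many members. ND ARM library 2 was above ND ARM library 1 in CPM for 9 of 9 members, and HFD SM library 1 was above HFD SM library 2 for 7 of 9. Most marker lists of other cells were ordered likewise in these libraries. ND ARM library 2 was the higher for 15 of 15 endothelial, 14 of 14 fibroblast, 13 of 14 adipocyte and 10 of 11 mesothelial markers. HFD SM library 1 was the higher for 13 of 15 endothelial, 11 of 14 fibroblast and 10 of 11 mesothelial markers but 5 of 14 adipocyte markers. The order differed in ND SMs, where library 1 was above library 2 for 6 of 9 members. Library 2 was the higher there for 12 of 15 endothelial, 12 of 14 fibroblast, 12 of 14 adipocyte and 10 of 11 mesothelial markers. Among HFD ARMs library 1 was the higher for 6 of 9 members, 10 of 15 endothelial and 8 of 11 mesothelial markers. It was the higher for only 4 of 14 fibroblast and 5 of 14 adipocyte markers. Without ND ARM library 2 none of the members was called in ND mice, and without ND ARM library 1 there were 5, namely Rgs5, Des, Abcc9, Notch3 and Mylk.

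Whether the ARM change differed between the diets was tested as an interaction over the 8 libraries. No member was called in edgeR's test of the difference (adjusted p from 0.810 to 1), where 22 of 13358 genes were called, 0.165%, and 1017 genes had an unadjusted p under 0.05. No member had an unadjusted p under 0.05. The difference, HFD less ND, was 0.13 (SE 0.301) for Rgs5 and 0.018 (SE 0.455) for Notch3, and the furthest from 0 were 1.07 (SE 0.664) for Kcnj8, -0.65 (SE 0.534) for Cspg4 and -0.54 (SE 0.483) for Des. The standard errors of these differences ran from 0.271 to 0.664, and a p that misses the threshold does not show that the diets were alike.

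The levels of the members also stood apart between the diets, and these are given as values without a test, because the diets were deposited as separate tables that were not made alike, and diet and table cannot be told apart. The mean CPM of HFD over ND libraries was 4.90 for Notch3 in ARMs and 4.87 in SMs, 4.28 and 4.16 for Abcc9, and 3.28 and 3.02 for Rgs5. It was 2.91 and 4.61 for Cspg4 and 2.79 and 2.30 for Acta2. For Tagln it was 1.91 and 1.89, for Mylk 1.44 and 1.32 and for Des 1.10 and 1.60. The ratio of Kcnj8 was 3.82 in ARMs and 1.84 in SMs, on few ND counts. Over all genes the median ratio was 1 in ARMs and 1.01 in SMs, and 36.5% and 37.4% of genes had both HFD libraries above both ND libraries. Every member listed in both tables had its HFD libraries above its ND libraries in both cell types, except Des in ARMs. On the FPKM scale Mylk overlapped too, with a ratio of 0.964 in SMs. The median FPKM ratio over all genes was 0.919 in SMs and 0.935 in ARMs. Acta2 and Mylk had implied gene lengths that varied between libraries, from 1858 to 2284 bases for Acta2 and 3750 to 5383 bases for Mylk.

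**Figure D3:**
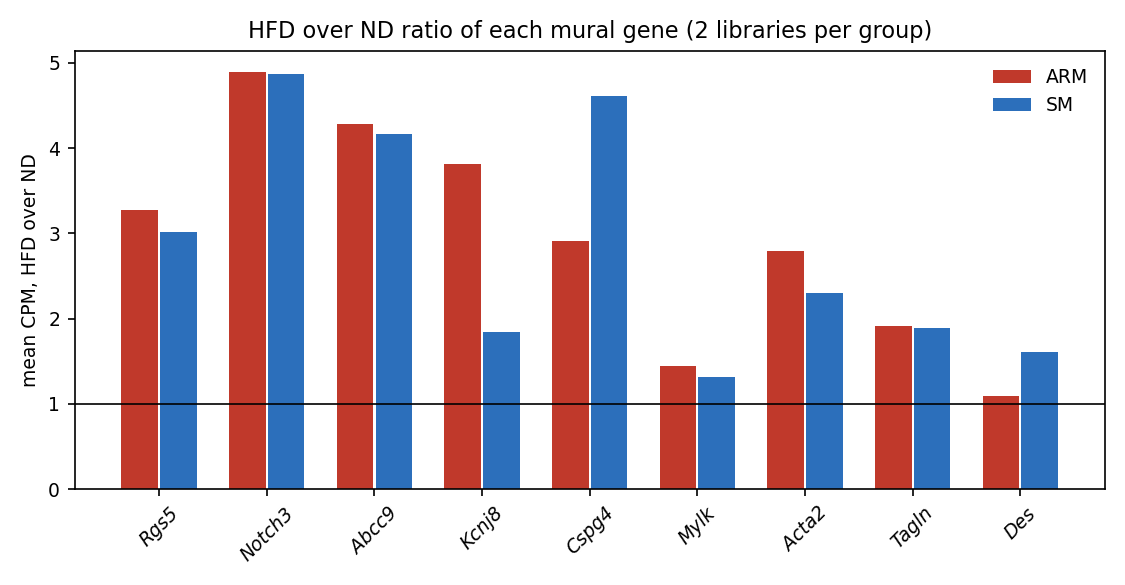
Ratio of the mean CPM of the 2 HFD libraries to that of the 2 ND libraries for each member, ARMs in red and SMs in blue, with a line at equal levels. Notch3 (4.90 and 4.87) and Abcc9 (4.28 and 4.16) had high ratios in both cell types, and Mylk (1.44 and 1.32) and Des (1.10 and 1.60) low ones.

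Per length, Rgs5 had the highest mean of the members in every group but ND SMs. Its libraries overlapped those of Acta2 and Tagln in HFD SMs and those of Mylk in ND ARMs. The FPKM of Rgs5 was 11.4 ± 0.354 (SD, n = 2) in HFD ARMs and 4.89 ± 1.52 in HFD SMs, and 3.63 ± 1.15 in ND ARMs and 1.74 ± 0.141 in ND SMs. In HFD ARMs it was followed by Acta2 (6.10 ± 1.30), Tagln (4.37 ± 0.375) and Mylk (3.82 ± 0.552), of which Tagln and Mylk overlapped between libraries, then Notch3 (2.21 ± 0.240), Abcc9 (1.68 ± 0.0990), Des (1.25 ± 0.106), Kcnj8 (0.800 ± 0.156) and Cspg4 (0.315 ± 0.0354). In ND SMs the smooth muscle genes led, with Mylk at 2.63 ± 0.134, Tagln at 2.20 ± 0.283 and Acta2 at 1.88 ± 0.651, the last overlapping Rgs5. Notch3 and Abcc9 were at 0.195 ± 0.0636 and 0.155 ± 0.0212 there.

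Other genes of mural cells were examined as a list of 22. In HFD mice 19 were tested, 18 were above 0, with a median log2 fold change of 1.03, 6 were called higher and 1 lower. Pdgfrb, the PDGF-B receptor that holds pericytes to vessels, rose in both diets, with log2 fold changes of 1.42 (338 and 295 counts in ARMs, 136 and 105 in SMs) and 1.43 (110 and 154, 47 and 52). Mcam, the adhesion molecule CD146, rose in HFD mice by 1.55 on the log2 scale. Kcnk3, a potassium channel, was also called there, on 11 and 14 counts in ARMs and 2 and 2 in SMs. Postn, the matrix protein periostin that fibroblasts also make, rose by 1.03 and 1.14. Enpep, which encodes aminopeptidase A, is named here because it was the 1 lower gene. It was at -0.59 and had 1498 to 2407 counts per HFD library. Anpep, at 0.28 and not called, had more, 3684 to 5361 counts, and both genes weighed heavily in the sum of the list. In ND mice 12 of the list were tested, 11 were above 0 (median 0.88) and 3 were higher, the third being Steap4, a metalloreductase, at 0.85.

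Of 25 other contractile genes, 18 were tested in HFD mice, all 18 were above 0 (median log2 fold change 0.37), and 2 were called higher, among them Synpo2, an actin-bundling protein (1.20). In ND mice 14 were tested, 13 were above 0 (median 0.35), and Cald1, the actin-binding caldesmon, rose by 0.60. None of the 14 genes for the phosphorylation of myosin light chain was called in either diet by edgeR or DESeq2, and 0 in HFD mice and 2 in ND mice had an unadjusted p under 0.05. In a list of 12 transcription factors and cofactors of smooth muscle, 7 were tested in each diet, and Tead1 was higher in HFD mice (1.12) and Tcf21, a factor of adipose progenitors, in ND mice (1.92). Srf had log2 fold changes of 0.050 and -0.060, and Myocd, the gene of myocardin, had at most 7 counts in any library.

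Ligands, receptors and targets of PDGF and Notch signaling came next, a list of 21. In HFD mice 19 were tested, 14 were above 0 (median log2 fold change 0.47) and 4 were called higher. These were Dll4, the endothelial Notch ligand (1.49), Angpt2, an endothelial ligand of Tie2 (1.32), Nrarp, a Notch target (1.28), and Pdgfb (0.64). Hes1, another Notch target, and Pdgfc are named because they were below 0, at -0.49 and -0.51. Their adjusted p in edgeR was 0.00993 and 0.00266, and both fell short of the fold threshold. In ND mice 17 were tested, 14 were above 0 (median 0.37) and 3 were higher. These were Pdgfra, the receptor of fibroblasts and progenitors (1.43), Tek, the endothelial receptor Tie2 (1.32), and Pdgfa (0.68).

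Relatives of the members were examined by family. Notch1 and Notch2 were at 26.0 and 44.1 FPKM in HFD ARMs, against 2.21 for Notch3, and were not called in either diet, and Notch4, an endothelial receptor, rose in HFD mice (1.33). None of the other RGS genes was called among the 13 (HFD) and 12 (ND) that could be tested by edgeR or DESeq2, and 4 in each diet had an unadjusted p under 0.05. In HFD mice the 4 were Rgs1 (0.48, adjusted p = 0.00162 in edgeR) and Rgs4 (1.06, 0.134) above 0, and Rgs14 (-0.32, 0.0253) and Rgs18 (-0.34, 0.032) below 0. Rgs1, Rgs14 and Rgs18 fell short of the fold threshold. Rgs10, at 210 FPKM in HFD ARMs, was not among the 4 of either diet. The cytoplasmic actins Actb and Actg1 stood at 1478 and 1348 FPKM there, against 6.10 for Acta2, and were not called. Of the calponin relatives, Cnn3 rose in HFD mice (0.98), and Cnn2 and Tagln2 were not called in either diet. Of the intermediate filaments, Nes, encoding nestin, rose in HFD mice (0.96) and Vim was not called.

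Markers of several other cell types were also called higher in ARMs, in 1 or both diets, and their part in the results above was not tested. The 15 endothelial markers were higher for 13 genes among HFD ARMs. Their median log2 fold change was 1.42, with a summed level of 380 to 393 CPM against 228 to 238 CPM in SMs. Eng, which was not called, made up most of that SM sum, at 145 CPM against 152 CPM in ARMs. In ND mice 1 of 15 was higher, with a median of 0.73 and sums of 173 to 260 CPM in ARMs and 175 to 182 CPM in SMs. The 14 fibroblast and progenitor markers were higher for 8 genes in HFD mice and 11 in ND mice, with sums of 1080 to 1276 against 777 to 809 CPM and 1191 to 1778 against 526 to 645 CPM. The 14 adipocyte markers were higher for 10 and 9 genes, with sums of 662 to 688 against 329 to 350 CPM and 337 to 481 against 244 to 278 CPM. Of 10 mesothelial markers tested, 0 were called in HFD mice (1 at an unadjusted p under 0.05, 0 by DESeq2) and 8 were higher in ND mice, where the sums were 46.5 to 61.8 CPM in ARMs and 12.3 to 16.9 CPM in SMs. Lymphatic markers were higher for 3 of 7 and 4 of 7 genes, with sums of 1046 to 1215 against 1621 to 1716 CPM in HFD mice and 1438 to 1557 against 1546 to 1815 CPM in ND mice. Lyve1, which macrophages also express, made up most of these sums, and the other 6 markers summed to 19.2 to 20.6 CPM in ARMs against 10.3 to 12.2 CPM in SMs of HFD mice, and to 17.5 to 18.7 against 6.2 to 6.79 CPM in ND mice. Markers of skeletal muscle, Schwann cells, T and NK cells and B cells had no gene called in either diet by edgeR or DESeq2 (1 each of the Schwann and B cell lists had an unadjusted p under 0.05 in HFD mice), those of neutrophils and mast cells had 1 higher gene in HFD mice and 1 lower in ND mice, and none of 10 markers of epididymal epithelium had enough counts to be tested.

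**Figure D4:**
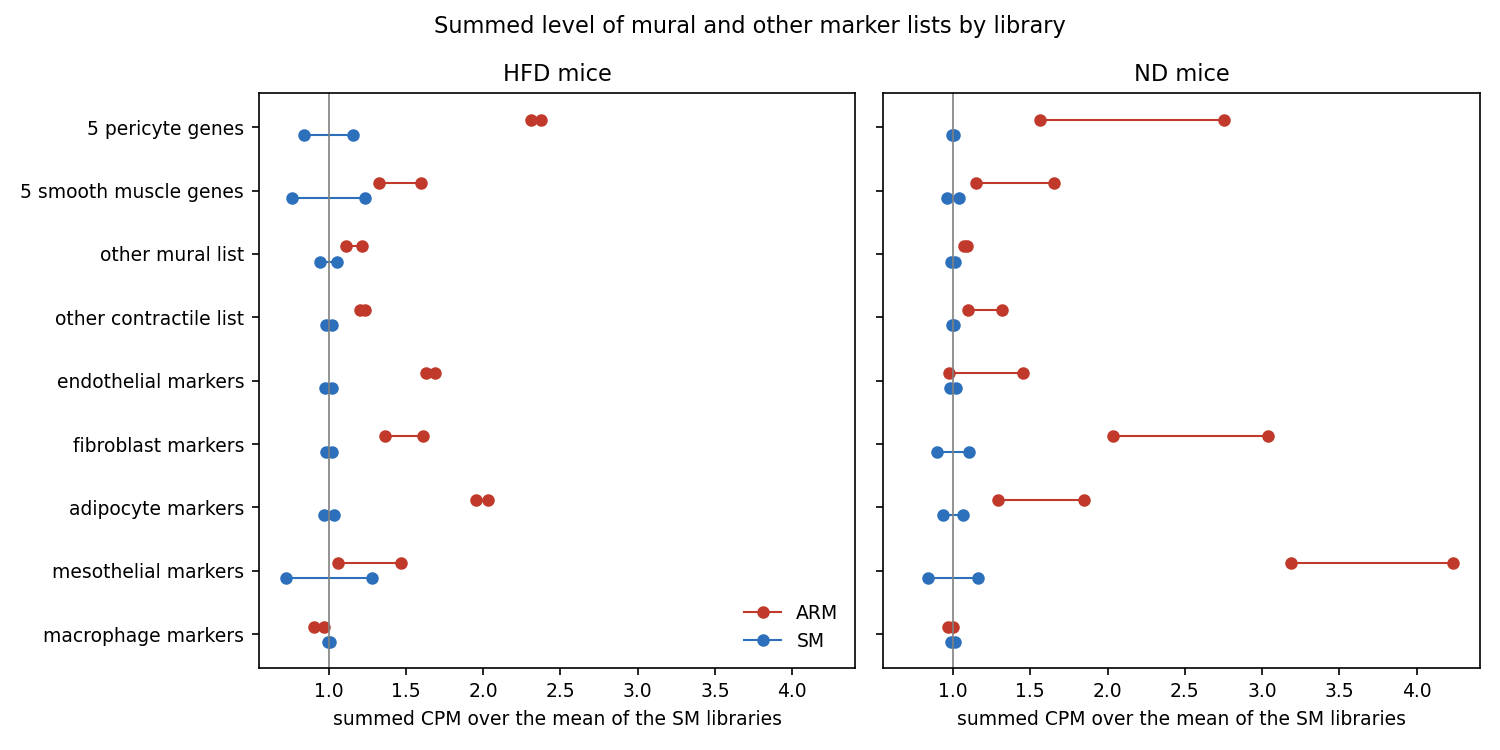
Summed CPM of gene lists in each library, divided by the mean of the 2 SM libraries of the same diet, ARMs in red and SMs in blue, with HFD mice on the left and ND mice on the right. In HFD mice the sum of the pericyte genes stood 2.34-fold above the SMs, that of the adipocyte markers 1.99-fold and that of the endothelial markers 1.66-fold. Eng, little changed at 152 CPM in ARMs and 145 CPM in SMs, made up most of the endothelial SM sum. By median log2 fold change the adipocyte (2.48) and endothelial (1.42) markers both stood above the pericyte genes (1.20) in HFD mice. In ND mice the mesothelial (3.71-fold) and fibroblast (2.54-fold) markers stood further above than the pericyte genes (2.16-fold), and the macrophage markers stayed near the level of the SMs.

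The genes whose profile was most like that of the summed members across the 8 libraries, after each diet's mean was removed, were Tinagl1 (Pearson r = 0.995), Agpat2 (0.991), Emcn (0.990), Ly6c1 (0.990) and Epas1 (0.983), among 11965 genes with a median r of -0.126. Emcn, Ly6c1 and Epas1 are expressed in endothelium, and 2.62% of all genes exceeded 0.9. Of the members themselves Rgs5 was at 0.987 and Acta2 at 0.797. Each member is part of the sum it was compared with, so these values were partly built in. These correlations describe 8 libraries that share sorting and sequencing, and they carry no test.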

How the data were processed

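RNA of sorted ARMs and SMs was sequenced in 2 libraries per group. The authors deposited 1 table per diet, holding an expected count, an FPKM and a TPM per gene and library. The build named in the submitters' processing notes is mm10. The aligner, counting program and strandedness were not given in the sources used here, so reads of a member and of a gene on the opposite strand (Notch3, Abcc9, Tagln, Mylk and Des overlap one) cannot be told apart. Expected counts of Acta2, Tagln and Abcc9 were not whole numbers in HFD libraries (Tagln also in ND), so reads had been shared with similar sequences. Non-whole values made up 32.3% to 32.9% of genes in HFD libraries and 8.55% to 9.36% in ND libraries, so the tables were not made alike.

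Counts were rounded and fitted per diet with edgeR 4.0.16 in R 4.3.3 (TMM, filterByExpr, quasi-likelihood test, Benjamini-Hochberg adjustment). Calls needed more than a 1.5-fold change and an adjusted p below 0.05. The standard error is the absolute log2 fold change divided by the square root of F. The difference between diets was an interaction term over 8 libraries. Likeness used log2(CPM + 0.5) over genes with a mean of at least 1 CPM. Alternatives were DESeq2 1.42.0, other scalings and filters (none, or 10 counts per library throughout), the cutoffs of the study's methods, one fit of all libraries, the replicate block, limma 3.58.1 on log2(FPKM + 1) or log2(FPKM + 0.1), with an FPKM of at least 1 in 2 libraries or no filter, and each library left out. TPM and FPKM were alternatives for the levels by diet. On simulated data for HFD mice (13166 genes), edgeR recovered 93% of genes changed 2-fold, and for ND mice (12291 genes) 81%. It made 14 and 3 false calls. The changed genes were drawn from all those with a mean over 1 CPM. Cspg4 and Kcnj8 lay below that in ND mice, and recovery at the levels of the members was not measured. P-values measure the spread between pooled libraries only. Members and gene lists were chosen with earlier results of these data known. Named from a list were genes called in both diets and up to 3 called genes per diet with the largest change, and related family genes with a mean of at least 10 counts. A called gene of the contractile list is not reported here. Positions came from GENCODE vM21. Plots used matplotlib 3.10.9 under Python 3.11.15.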

Additional observations from a re-analysis of the deposited data

How the results depend on the processing

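With 2 libraries per group and counts under 70 for several members in ND mice, single libraries decided several calls. Of the members, 4 were called in HFD mice, and this was 2 without a filter on low counts, 7 under the threshold of the study's methods, 2 with limma on log2(FPKM + 0.1) and 0 with limma on log2(FPKM + 1) without a filter. Leaving out 1 library gave 3 to 6. Of the ND members 2 were called, and this was 1 with DESeq2, 4 without a filter, 5 under the methods' threshold and 0 with limma on log2(FPKM + 1), on log2(FPKM + 0.1) and on log2(FPKM + 1) without a filter. Leaving out 1 ND library gave 0 to 5. The cause was not tested. Abcc9 and Notch3 were called in HFD mice under every alternative but limma without a filter. No called value changed sign. Over all genes, the calls in either direction (634 in HFD mice, 458 in ND mice and 22 for the difference between diets) ran over the alternatives from 35 to 1017, 0 to 888 and 0 to 187.

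With the replicate block, 5 members were called in HFD mice (Des added) and 4 in ND mice (Notch3, at adjusted p = 0.000802, and Abcc9, at 0.00197, added), and 0 for the difference between diets. The deviations of same-numbered libraries correlated with r = -0.00222 in HFD mice and 0.257 in ND mice. With 2 pairs per diet and no label that says what a number marks, pairing was not established.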
